A study of Homo sapiens with 2 samples.

Results

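The FKBP immunophilins described here are the 7 family members that work in the cytosol, the nucleus or on mitochondria rather than inside the endoplasmic reticulum (ER): FKBP1A, FKBP1B, FKBP3, FKBP4, FKBP8, FKBP15 and FKBPL. They were taken by gene name from the 58735 genes of the deposited expression table, in which 27 genes carry a name beginning with FKBP. FKBP4 was kept because it was listed by name, although its protein is also known as a cochaperone of steroid receptors. RNA was sequenced from SF-539 cells, a human glioblastoma cell line, that had been infected with the pGIPZ-CTRL lentivirus (shControl) or with a lentivirus carrying an shRNA against FKBP9 (shFKBP9) and kept as stable puromycin-selected cells. Both populations therefore carry a lentiviral vector and were grown in the same serum-containing medium at the same range of passages. There was 1 library per condition, so no difference between the conditions has a replicate check. The cells are described as stable clones, and which shRNA construct was sequenced and how many clones a library held are not given in the sources used here.

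FKBPs are peptidyl-prolyl isomerases, enzymes that turn the bond before a proline in a protein chain, and many of them bind the immunosuppressants FK506 and rapamycin. The small cytosolic FKBP1A (FKBP12) is the receptor through which FK506 blocks calcineurin and rapamycin blocks mTOR; without drug it sits on ryanodine receptors and on type I TGF-beta family receptors. FKBP1B (FKBP12.6) is its close paralogue and is best known on the cardiac ryanodine receptor. FKBP3 (FKBP25) is nuclear, FKBP4 (FKBP52) and FKBPL join HSP90 through TPR repeats, FKBP8 (FKBP38) is anchored in the outer membrane of mitochondria and binds BCL2 family proteins and calmodulin, and FKBP15 (also called WAFL) works with the WASH complex on endosomes. FKBP9, the gene targeted by the shRNA, encodes a member that resides in the ER.

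The coding sequences of FKBP1A and its relatives FKBP1B and FKBP1C are shown, by their first 300 bases. Their likeness bears on which fragments can be assigned to FKBP1A, although the coding sequence is only 327 of the 1514 bases of its canonical transcript. They were read from hg38 with the canonical transcripts of GENCODE release 44, 5′ to 3′, with each base that differs from FKBP1A in capitals.
FKBP1A: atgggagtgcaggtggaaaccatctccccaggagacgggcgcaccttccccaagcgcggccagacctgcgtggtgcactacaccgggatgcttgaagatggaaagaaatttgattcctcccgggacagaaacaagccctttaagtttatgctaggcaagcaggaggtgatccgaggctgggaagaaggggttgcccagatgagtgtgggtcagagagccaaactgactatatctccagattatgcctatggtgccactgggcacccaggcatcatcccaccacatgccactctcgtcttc
FKBP1B: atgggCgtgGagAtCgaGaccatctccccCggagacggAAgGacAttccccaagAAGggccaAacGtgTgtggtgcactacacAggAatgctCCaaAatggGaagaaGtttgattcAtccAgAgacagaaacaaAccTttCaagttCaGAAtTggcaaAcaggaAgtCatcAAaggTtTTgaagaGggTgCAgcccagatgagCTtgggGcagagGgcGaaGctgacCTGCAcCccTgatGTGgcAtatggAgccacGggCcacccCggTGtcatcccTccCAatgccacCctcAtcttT
FKBP1C: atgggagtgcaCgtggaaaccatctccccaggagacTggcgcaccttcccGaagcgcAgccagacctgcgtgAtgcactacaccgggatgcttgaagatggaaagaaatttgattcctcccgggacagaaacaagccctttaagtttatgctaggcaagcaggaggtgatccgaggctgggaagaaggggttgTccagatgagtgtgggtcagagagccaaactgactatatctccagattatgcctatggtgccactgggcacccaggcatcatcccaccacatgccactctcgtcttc

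Each whole coding sequence is 327 bases long, enough for 108 codons and a stop. FKBP1A is read from 4 coding exons on the minus strand of chromosome 20, between 1372112 and 1392998, and FKBP1B from 4 coding exons on the plus strand of chromosome 2, between 24049850 and 24063192. FKBP1C is a single-exon retrogene on chromosome 6, with its coding sequence from 63211557 to 63211883. Over the 327 bases FKBP1B differed from FKBP1A at 82 bases (74.9% identity), 58 of them at the third base of a codon, and its longest identical stretch was 14 bases, so fragments of these paralogues can be told apart. FKBP1C differed at 6 bases (98.2% identity), with an identical stretch of 133 bases. Over the whole canonical transcript, 201 of the 1415 windows of 100 bases in FKBP1A (14.2%) also occurred at the FKBP1C locus. For FKBP1B, FKBP3, FKBP4, FKBP8, FKBP15 and FKBPL, 0 windows occurred elsewhere on the primary chromosomes.

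The values are FPKM, the number of sequenced fragments on a gene scaled by its length and by the size of the library, and the fragments behind each value were recovered from them. The libraries held 18116873 fragments on genes in shControl and 17158514 in shFKBP9. Changes are given as the log2 ratio of shFKBP9 to shControl, with 0.1 FPKM added to both values. Where values of both libraries are given as a pair, shControl comes first. The 95% interval beside a ratio was taken from the fragments by the exact Clopper-Pearson method, and it covers counting error only, compares the libraries and not the conditions, and contains no spread between cultures. The targeted gene, FKBP9, was at 4659 and 415 fragments (log2 ratio -3.38, interval -3.56 to -3.27). Although the labels call SF-539 epithelial glioma cells, 1 of 6 epithelial markers, KRT8, reached 1 FPKM, and CDH1 had 0 and 1 fragments. Of the 9 glioma markers 5 reached 1 FPKM, led by VIM (277 and 295 FPKM), while GFAP was at 0.196 and 0.139 FPKM and S100B had 0 and 1 fragments. CHI3L1, a marker of mesenchymal glioma, had the largest ratio of these markers, with 610 and 1132 fragments (0.96, interval 0.83 to 1.11). Of the 6 mesenchymal markers 4 reached 1 FPKM, led by COL1A1 (837 and 884 FPKM), while THY1 had 3 and 1 fragments and COL3A1 was at 0.341 and 0.359 FPKM, and 0 of 7 blood and endothelial markers reached 1 FPKM. The summed FPKM was 351 and 386 for the glioma markers, 2.05 and 1.78 for the epithelial, 1611 and 1708 for the mesenchymal and 0.524 and 0.822 for the blood and endothelial markers; their part in the results was not tested.

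All 7 genes were transcribed in both libraries, and their levels differed far more between genes than between libraries. FKBP8 was the most abundant, at 135 FPKM in shControl and 131 FPKM in shFKBP9, and alone held 52.6% and 50.7% of the summed FPKM of the 7 genes. FKBP1A followed at 50.6 and 56.9 FPKM, FKBP3 at 31.4 and 32.4 FPKM, and FKBP4 at 22.4 and 21.8 FPKM. FKBPL (8.17 and 7.49 FPKM) and FKBP15 (8.04 and 8.05 FPKM) were close together, and FKBP1B came last at 1.28 and 0.938 FPKM. In the ranking of all genes by FPKM in shControl, FKBP8 was at place 255, FKBP1A at 854 and FKBP1B at 11415. The order of the genes was the same in both libraries apart from FKBPL and FKBP15, whose exact Poisson intervals overlapped in each library (7.08 to 9.39 against 7.65 to 8.44 FPKM in shControl). The other neighbours in the order did not overlap in either library, the closest being FKBP3 over FKBP4, 1.40-fold in shControl and 1.48-fold in shFKBP9.

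**Figure D1:**
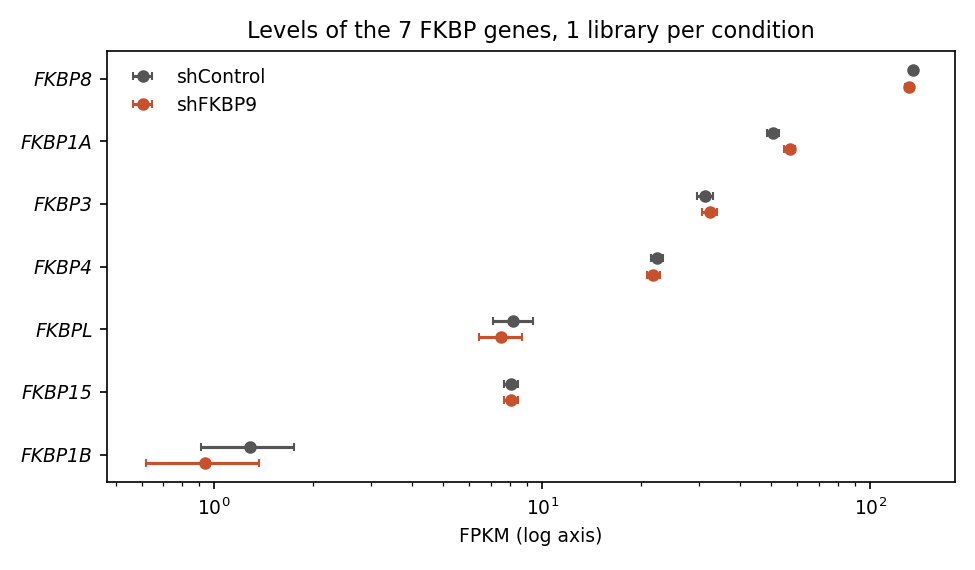
FPKM (x axis, logarithmic) of the 7 FKBP genes (y axis) in shControl (grey) and shFKBP9 (orange), 1 library each; bars are exact 95% Poisson intervals of the fragments. The points of both libraries lie close together for each gene, from FKBP8 at 135 and 131 FPKM down to FKBP1B at 1.28 and 0.938 FPKM.

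These levels depend on the gene length by which fragments were divided. The deposited length of FKBP1A is 2577 bases, whereas its canonical transcript has 1514. With the length of the canonical transcript in place of the deposited length, the shControl levels would be 223 FPKM for FKBP8, 86.1 for FKBP1A, 54.6 for FKBP3, 31.2 for FKBP4, 10.1 for FKBP15, 8.19 for FKBPL and 2.33 for FKBP1B, a choice of length made after the data were seen. FKBP15, with 28 exons in its canonical transcript and the longest gene of the set, then stands above FKBPL, and the rest of the order stays. The plain ratio between the libraries, without the addition of 0.1 FPKM, is not affected by the length. In a bulk library, fewer cells that transcribe a gene and less RNA of it per cell cannot be told apart.

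No member passed a 2-fold difference between the libraries. Of all 12741 genes that reached 1 FPKM in a library, 537 (4.21%) were past 2-fold, 2.02% higher and 2.19% lower in shFKBP9, and 0 of the 7 genes were. The log2 ratios ran from -0.42 for FKBP1B to 0.17 for FKBP1A, with 3 genes above 0 and 4 below. Their median was -0.04, beside a median of -0.02 over the 12741 genes. For 6 of the 7 genes the whole counting interval lay within 2-fold; for FKBP1B it reached -1.22.

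**Figure D2:**
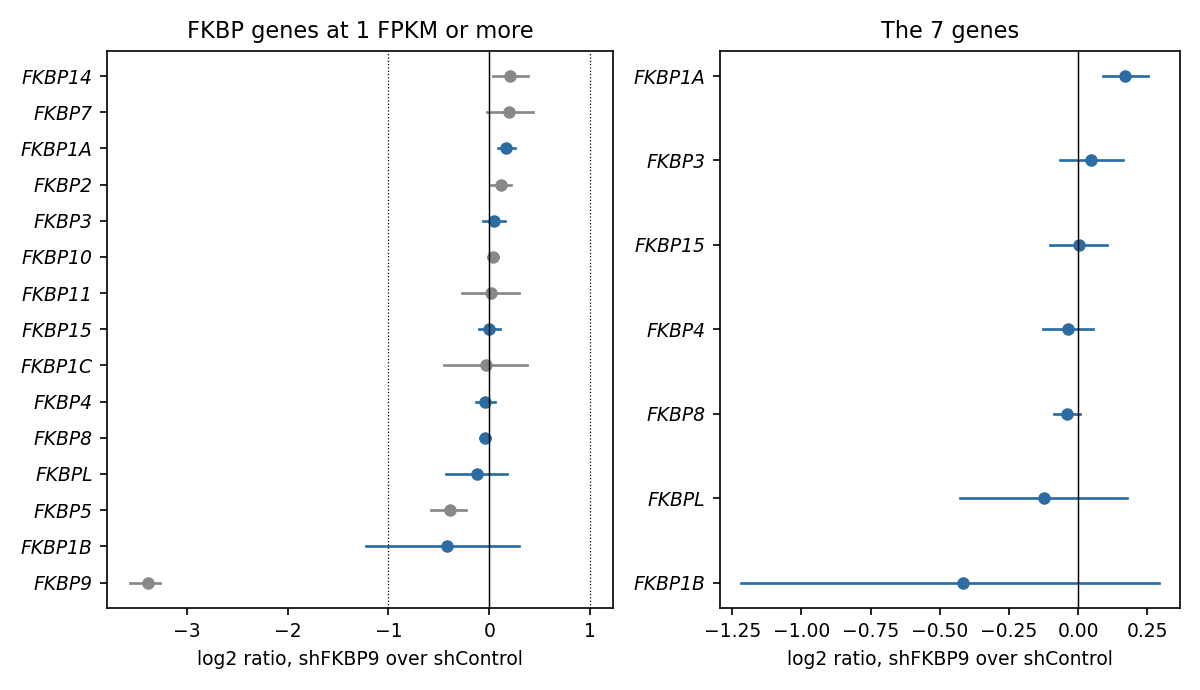
Log2 ratio of shFKBP9 over shControl (x axis) with 95% Clopper-Pearson intervals, for all FKBP genes that reached 1 FPKM in a library (left, dotted lines at 2-fold) and for the 7 cytosolic and nuclear genes alone (right); blue marks the 7 genes and grey the others. FKBP9 stands apart at -3.38, and of the 7 genes FKBP1A alone has an interval, 0.09 to 0.25, that leaves out 0.

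FKBP1A was the gene of the set whose difference exceeded its counting error. It lies on the minus strand of chromosome 20 (hg38, 1368978 to 1393172, ENSG00000088832). Its 2359 and 2516 fragments gave a log2 ratio of 0.17 (95% interval 0.09 to 0.25), a level 12.5% higher in shFKBP9. Intervals that leave out an equal level were found for 5264 of the 17105 genes with at least 10 fragments (30.8%; 13.8% higher and 16.9% lower in shFKBP9), and for 3417 of the 6393 genes with at least 1000 fragments (53.4%). Among the members 1 of 7 had such an interval, and 1 of the 5 with at least 1000 fragments. Of the 11465 genes with at least 1 FPKM and 50 fragments, 81.1% had a lower log2 ratio than FKBP1A and 41.3% had one farther from 0. The ratio of FKBP1A thus stayed inside the range of -0.48 to 0.47 that held the middle 95% of these genes.

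Of the copies of FKBP1A, FKBP1C alone had enough fragments for an interval. It was at 105 and 97 fragments (-0.04, interval -0.45 to 0.37). The processed pseudogenes FKBP1AP1 and FKBP1AP2 had 0 and 1 fragments each, and FKBP1AP3 and FKBP1AP4 had 0 in both. The readthrough gene AL136531.2, which spans FKBP1A on the same strand, had 0 and 3 fragments. Together these copies had 105 and 102 fragments, and with them FKBP1A stood at 0.16 (0.08 to 0.24). On the opposite strand SDCBP2-AS1 overlaps FKBP1A and had 80 and 63 fragments. In GENCODE release 44, 12.7% of the exon bases of FKBP1A are also exon bases of another gene, on either strand, and whether fragments there were left out by the authors is not stated. That release gives FKBP1A 5973 exon bases against a deposited length of 2577, so the share may differ in the model that was counted.

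FKBP1B, on the plus strand of chromosome 2 (24049701 to 24063681, ENSG00000119782), was the least precisely counted member. It had 39 and 27 fragments, a log2 ratio of -0.42 with an interval from -1.22 to 0.29. The interval corresponds to a change between -57.0% and 22.4%. FKBP1A exceeded it 39.4-fold in shControl and 60.6-fold in shFKBP9, so that of this pair of paralogues the cells transcribed almost only FKBP1A. FKBP1B was the only member listed under 1 FPKM in a library, at 0.938 FPKM in shFKBP9 with a Poisson interval of 0.618 to 1.36 FPKM, and with the canonical length it would be at 1.70 FPKM there. Its pseudogene FKBP1BP1 had 0 fragments in both libraries, and MFSD2B, which overlaps it on the same strand, had 6 and 3. In GENCODE release 44, 27.7% of the exon bases of FKBP1B are also exon bases of another gene.

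The nuclear member FKBP3, which is known to bind nucleic acids and histone deacetylases, lies on chromosome 14 (45115600 to 45135319, minus strand, ENSG00000100442). It had 1284 and 1258 fragments (0.05, interval -0.07 to 0.16). The interval corresponds to a change between -4.48% and 11.8%. PRPF39, a splicing factor gene that overlaps FKBP3 on the opposite strand, was at 430 and 461 fragments (0.17, interval -0.02 to 0.37).

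The TPR members FKBP4, FKBPL and FKBP8 were all slightly lower in shFKBP9, none by more than counting error. FKBP4 (chromosome 12, 2794953 to 2805423, plus strand, ENSG00000004478) had 2099 and 1940 fragments, a log2 ratio of -0.04 (interval -0.13 to 0.05). Its 5 pseudogenes in the table had 0 fragments in both libraries. FKBP5, its closest relative, a cochaperone of the same receptors and no member of the set, was at 647 and 465 fragments (-0.39, interval -0.57 to -0.23). FKBP4 was 6.66 times as abundant as FKBP5 in shControl and 8.56 times in shFKBP9.

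FKBP8 (chromosome 19, 18531751 to 18544077, minus strand, ENSG00000105701) was the most precisely measured member, with 7095 and 6540 fragments. Its log2 ratio was -0.04, and the interval from -0.09 to 0.01 corresponds to a change between -6.01% and 0.551%. Rescaled to TPM, in which the FPKM of each library sum to the same total, FKBP8 was at -0.06 with an interval of -0.11 to -0.01, which leaves out 0. The side of 0 on which this interval ends is therefore set by the scaling.

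FKBPL (chromosome 6, 32128707 to 32130291, minus strand, ENSG00000204315), which is known to stabilise CDKN1A together with HSP90, had 199 and 173 fragments, a log2 ratio of -0.12 with an interval from -0.43 to 0.18. FKBP15 (chromosome 9, 113161006 to 113221361, minus strand, ENSG00000119321) had 1610 and 1528 fragments, 8.04 and 8.05 FPKM and an interval from -0.10 to 0.10. The sign of its ratio changed with the scaling of the libraries.

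**Figure D3:**
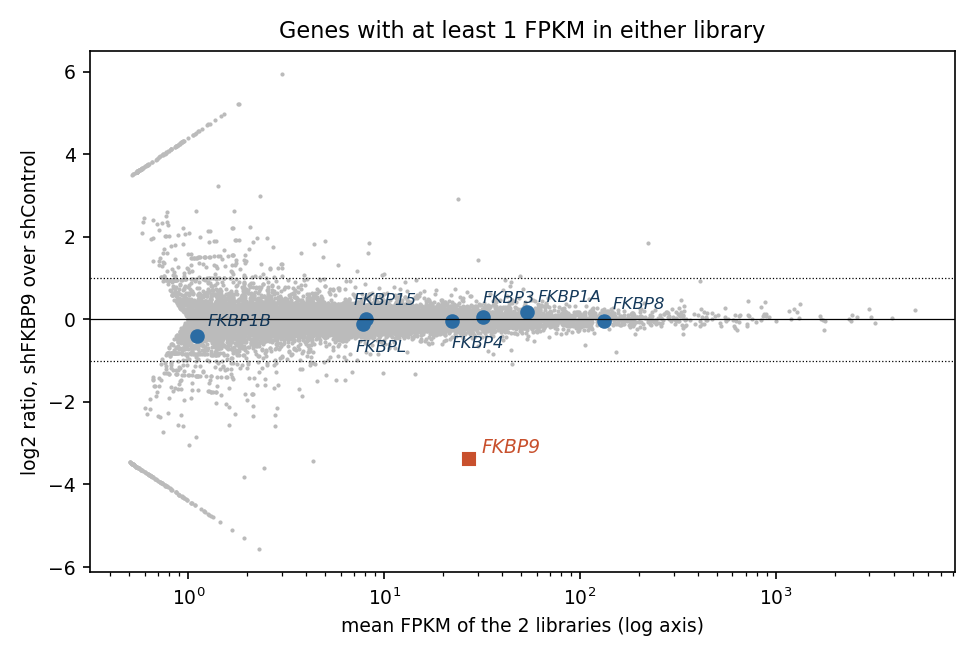
Log2 ratio of shFKBP9 to shControl (y axis) against the mean FPKM of both libraries (x axis, logarithmic) for the 12741 genes that reached 1 FPKM in a library (grey). The 7 genes (blue) lie in the body of the cloud between the dotted lines at 2-fold, whereas FKBP9 (orange square) lies at -3.38.

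The loss of FKBP9 RNA was not matched by a like gain of the cytosolic and nuclear genes. FKBP9 was 45.1 FPKM lower in shFKBP9, from 49.8 to 4.68 FPKM. The summed FPKM of the 7 genes was 257 in shControl and 259 in shFKBP9, a difference of 2.01 FPKM or 0.783%, which is smaller than the shift that TPM brings, so that with TPM the sum is lower in shFKBP9. Within that sum FKBP1A was 6.31 FPKM higher and FKBP8 lower, from 135 to 131 FPKM. The other 5 ER members, FKBP2, FKBP7, FKBP10, FKBP11 and FKBP14, summed to 156 and 165 FPKM, 8.58 FPKM higher in shFKBP9. All 5 had a higher FPKM in shFKBP9, and the intervals of FKBP14 (0.21, 0.04 to 0.39) and FKBP2 (0.12, 0.02 to 0.21) left out 0; with TPM the direction of 1 of the 5 turned, and FKBP2 no longer left out 0. The difference between the cytosolic and the ER members has no replicates and was not tested.

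**Figure D4:**
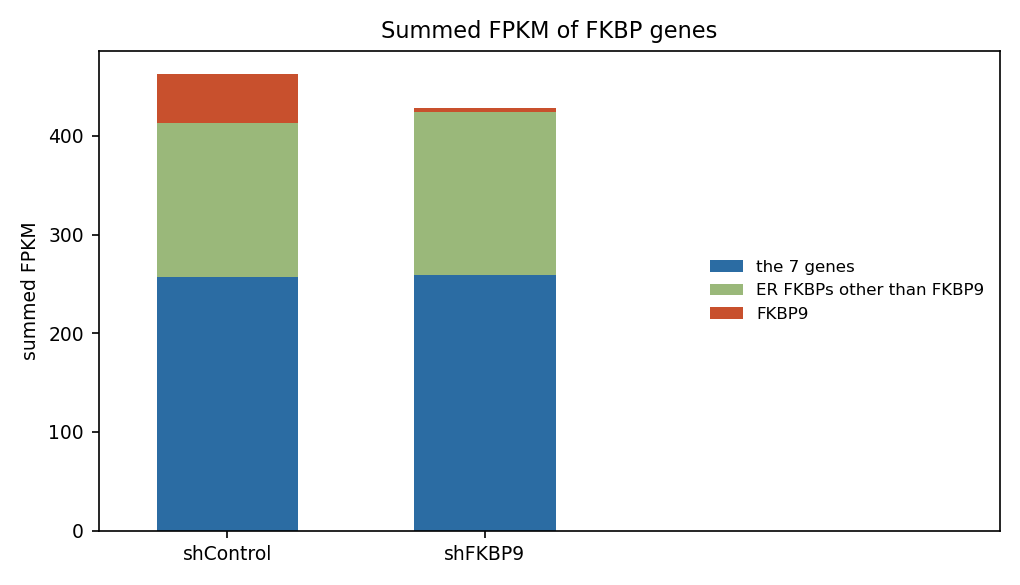
Summed FPKM (y axis) in the shControl and shFKBP9 libraries, stacked as the 7 cytosolic and nuclear genes (blue), the 5 ER FKBPs other than FKBP9 (green) and FKBP9 (orange). The blue part is 257 FPKM in shControl and 259 in shFKBP9, while the orange part goes from 49.8 to 4.68 FPKM.

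Several members lie close to a gene on the opposite strand. Between the gene spans of the deposited table, FKBP1B lies 126 bases from the divergently transcribed WDCP, FKBP15 lies 201 bases from SLC31A1, a copper importer, and FKBP3 lies 621 bases from FANCM, a DNA helicase of the Fanconi anaemia pathway. WDCP had 291 and 216 fragments, a log2 ratio of -0.34 (interval -0.61 to -0.09), beside -0.42 for FKBP1B. SLC31A1 was at -0.04 (-0.15 to 0.07) beside 0.0013 for FKBP15, and FANCM at 0.18 (-0.12 to 0.52) beside 0.05 for FKBP3. ATF6B, a paralogue of the ER stress sensor gene ATF6, lies 454 bases beyond the 3′ end of FKBPL on the same strand and had 1655 and 1508 fragments (-0.06, -0.16 to 0.04). Of the 14 nearest neighbours with at least 1 FPKM, SNORD127 had 2 and 1 fragments, too few for an interval. Among the others, beside 30.8% of all genes, 2 had an interval that left out 0, WDCP and SF3B6, the latter at 0.11 (0.01 to 0.22) and no longer off 0 with TPM.

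The start regions themselves were looked up in a set of 35116 promoters from RefSeq (GRCh38.p14). It held 4 of the 7 genes, FKBP1A, FKBP1B, FKBP3 and FKBP15, each from 250 bases before to 50 bases after the start. Those of FKBP4, FKBP8 and FKBPL were not in the set used here. The 2 promoters below are shown because they hold the full cyclic AMP response element TGACGTCA, the palindrome bound by the CREB and ATF families, given in capitals.
FKBP3: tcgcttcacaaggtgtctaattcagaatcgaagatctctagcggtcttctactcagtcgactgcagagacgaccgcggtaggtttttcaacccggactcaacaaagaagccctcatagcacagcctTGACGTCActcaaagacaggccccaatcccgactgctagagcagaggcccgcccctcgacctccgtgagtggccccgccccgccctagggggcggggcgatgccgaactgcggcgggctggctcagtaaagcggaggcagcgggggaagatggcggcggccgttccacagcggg
FKBP15: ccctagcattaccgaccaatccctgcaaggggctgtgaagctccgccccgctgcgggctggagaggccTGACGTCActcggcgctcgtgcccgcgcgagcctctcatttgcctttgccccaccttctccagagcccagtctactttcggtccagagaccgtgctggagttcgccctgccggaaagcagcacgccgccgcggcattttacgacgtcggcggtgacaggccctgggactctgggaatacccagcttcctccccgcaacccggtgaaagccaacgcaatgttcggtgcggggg

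The FKBP3 region is chr14:45134432-45134731 and the FKBP15 region chr9:113221228-113221527, both on the minus strand and written 5′ to 3′. The RefSeq starts of FKBP3, FKBP15 and FKBP1B lie inside their gene spans of the deposited table. They are thus farther from FANCM, SLC31A1 and WDCP, respectively, than the distances between the gene spans. The element lies 124 to 117 bases before the start of FKBP3 and 182 to 175 bases before that of FKBP15. It occurred in 1.85% of all 35116 promoters of this length and in 2 of the 4 members looked up. The levels of these genes in shControl and shFKBP9 were within counting error, 31.4 and 32.4 FPKM for FKBP3 and 8.04 and 8.05 FPKM for FKBP15. FKBP3 also held AAGATGGCG, a core of the YY1 motif, which was found in 1.75% of promoters. The ER stress elements ERSE (in 0.0769% of promoters) and UPRE (TGACGTGG, 0.729%), the ATF4 element TGATGNAA (3.62%) and the heat shock element (0.490%) were found in 0 of the 4. The GC box GGGCGG was in all 4, beside 45.0% of promoters, the CCAAT box CCAAT in 3 (34.6%), and the TATA box TATAAA in 0 (11.5%). Both strands were searched, and the letters of ERSE include a CCAAT box. FKBP1A had 41 CpG dinucleotides, more than 93.3% of promoters, and FKBP1B had 32, more than 81.1%. The motifs were chosen after the sequences and the values had been seen, and a match describes the letters alone.

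Genes whose proteins work with the members, and other isomerase and FKBP-domain genes, were grouped into 12 lists of 115 different genes, of which 102 reached 1 FPKM in either library. FKBP9, the targeted gene, was past 2-fold, and 0 of the others were. Of the 111 genes with at least 10 fragments, 55 had an interval that left out an equal level (49.5%, beside 30.8% of all genes and 53.4% of genes with at least 1000 fragments), 35 of them higher and 20 lower in shFKBP9. The lists were written with earlier results of these data known, and their counts describe them and are no test.

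Of the targets that FK506 or rapamycin reach through FKBP1A, 15 of 16 genes were at 1 FPKM or more. Over all genes with at least 10 fragments, 13.8% were off 0 upward and 16.9% downward. The share in either direction was 53.4% among genes with at least 1000 fragments. In this list, intervals left out 0 upward for 4 and downward for 5. These counts were 5 and 5 with median or upper quartile scaling, and 4 and 6 with TPM. The largest ratios belonged to the calcineurin regulators RCAN2, from 134 to 212 fragments (0.71, interval 0.42 to 1.06), and RCAN1, from 1829 to 2345 (0.43, 0.35 to 0.52); RCAN1 is itself a known target gene of calcineurin signalling. The catalytic subunits PPP3CA (0.31, 0.17 to 0.47) and PPP3CB (0.26, 0.13 to 0.40) were also higher, and the third, PPP3CC, was at 0.06 (-0.12 to 0.25). The genes that were lower by their intervals were NFATC2, a transcription factor that calcineurin activates (-0.42, -0.72 to -0.17), its relative NFATC3, MTOR and its partners MLST8 and RPTOR. MTOR, the kinase that rapamycin inhibits, was at 3056 and 2295 fragments (-0.33, -0.42 to -0.26). NFATC1 had 0 fragments in both libraries.

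The receptors and channels that FKBP1A and FKBP1B bind were measured as 2 lists. Among 7 type I receptors of the TGF-beta family 4 reached 1 FPKM, and the interval of 1 of the 7 left out 0, or of 2 with each other scaling (both higher with median and upper quartile scaling, 1 higher and 1 lower with TPM). The receptor off 0 without rescaling was TGFBR1, which encodes the TGF-beta type I receptor, with 1625 and 2206 fragments, 13.1 and 18.8 FPKM (0.51, interval 0.42 to 0.61). ACVR1B, an activin receptor, was at -0.15 (-0.31 to 0.01). Of the calcium release channels, RYR1, RYR2 and RYR3, the ryanodine receptors, were all under 1 FPKM, at no more than 40 fragments each. Inositol trisphosphate receptor ITPR3 was lower (-0.28, -0.35 to -0.21) and ITPR1 higher (0.18, 0.08 to 0.29).

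The HSP90 cycle, which FKBP4 and FKBPL join, had 15 of 16 genes at 1 FPKM or more, with 2 higher and 7 lower by their intervals. These counts were 2 and 6 with median or upper quartile scaling, and 2 and 8 with TPM. Over all genes with at least 10 fragments, 13.8% were higher and 16.9% lower. The share off 0 in either direction was 53.4% among genes with at least 1000 fragments. In this list FKBP5 (-0.39) and AHSA2P (-0.25, -0.39 to -0.12) had the largest ratios among genes with 1 FPKM and 50 fragments. The stress-inducible HSP90AA1 was higher (30029 and 32932 fragments, 0.21, 0.19 to 0.23) and the constitutive HSP90AB1 lower (40520 and 34501, -0.16, -0.18 to -0.13). The adaptor STIP1, which links HSP70 to HSP90, was at -0.17 (-0.22 to -0.12).

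Among the partners of FKBP8 on mitochondria and in mitophagy, all 13 genes at 1 FPKM or more had a higher FPKM in shFKBP9, with a median log2 ratio of 0.17 beside -0.02 over all genes at that level. The intervals of 8 of the 14 genes with at least 10 fragments left out 0, all of them upward. Of all genes with at least 10 fragments 13.8% were off 0 upward, and the share off 0 in either direction was larger among genes with more fragments. With TPM 12 of 13 were higher, and the count of 8 stayed. The largest ratio was that of BNIP3L, a mitophagy receptor induced by hypoxia, with 3773 and 4954 fragments (0.47, 0.41 to 0.53), and calmodulin CALM2 had 5734 and 6553 (0.27, 0.22 to 0.32). GABARAP was at 0.28 on 61 and 71 fragments, with an interval from -0.22 to 0.81. BCL2, the apoptosis inhibitor that FKBP8 binds, was under 1 FPKM and lay on the other side of 0, with 74 and 53 fragments (-0.30, -0.94 to 0.12). FKBP8 itself stood at -0.04.

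The nuclear partners of FKBP3 had 2 genes higher and 3 lower of 10. YY1, a transcription factor whose DNA binding FKBP3 is known to alter, had 3983 and 2691 fragments (-0.49, interval -0.56 to -0.42). Of the WASH complex and its endosomal neighbours, which FKBP15 meets on endosomes, all 13 genes reached 1 FPKM, and 7 were higher and 1 lower by their intervals, or 5 and 1 with TPM. VPS26A, a retromer subunit, was at 0.34 (0.23 to 0.45) and the endosomal tether EEA1 at 0.25 (0.03 to 0.50). The gene that was lower was WASHC2A, at -0.15 (-0.24 to -0.06); its near-identical copy WASHC2C was at 0.14 (0.01 to 0.27), and fragments may be split between these copies. Among 6 partners of FKBPL, CD44 (0.19, 0.15 to 0.24) and CDKN1A (0.10, 0.04 to 0.15) were higher and 0 were lower, RPAP3 was at 0.14 (-0.06 to 0.35), and ESR1, the oestrogen receptor, had 5 and 6 fragments.

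The other isomerase families, the cyclophilins and the parvulins, had 0 genes past 2-fold. Of 17 cyclophilins 16 reached 1 FPKM, with a median log2 ratio of 0.05, 6 higher and 2 lower by their intervals, or 4 and 2 with TPM. CWC27 (0.35, 0.16 to 0.55) and PPIL4 (0.31, 0.15 to 0.48), cyclophilins of the spliceosome, had the largest ratios among those with 1 FPKM and 50 fragments. PPIL6, under 1 FPKM, was at 16 and 4 fragments (-0.97, -3.96 to -0.29). Of the parvulins 0 had an interval that left out 0, and PIN4 was at 0.07 (-0.11 to 0.24).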

How the data were processed

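RNA of 1 shControl and 1 shFKBP9 library of SF-539 cells was analysed. Per the paper's methods and the submitters' processing notes, paired-end reads without adapters, undetermined bases or low quality were aligned to hg38 with HISAT2 2.0.5 and counted per gene with featureCounts 1.5.0-p3; edgeR was used by the authors. The annotation release, the strand setting and the treatment of shared reads are not given in the sources used here. The authors deposited the values as FPKM with gene lengths and positions, and 0 further columns of values per library.

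FPKM times gene length took whole multiples of the smallest step of its library for 100% of values above 0, to within 0.001, and these multiples were used as fragments. The step corresponds to library sizes of 18106502 and 17168342, close to the fragments on genes; 1 fragment on 1 kilobase is 0.0552 FPKM in shControl and 0.0582 in shFKBP9. Ratios used log2 of FPKM with 0.1 added, the 2-fold rule required 1 FPKM in either library, and intervals were computed for genes with at least 10 fragments. Since each condition had a single library, the conditions were not tested against each other. Fragments are PCR products without molecular identifiers, so intervals cover counting error only. The 7 genes and all lists were chosen with earlier results of these data known. The text names the members, FKBP9, other FKBP genes, overlapping and nearest expressed genes, and in each list the 2 largest ratios among genes with 1 FPKM and 50 fragments; MTOR, MLST8, RPTOR, NFATC2, NFATC3, PPP3CA, PPP3CB, PPP3CC, PPIL6, BCL2, HSP90AA1, HSP90AB1, STIP1, CALM2, WASHC2A, WASHC2C, CDKN1A, the cell type markers and genes at few fragments were added after their values were seen. No gene is named for a like pattern, since over 2 libraries a pattern is a single ratio.

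Gene models came from GENCODE release 44, whose identifiers matched all 7 genes, with ends that differ from the deposited ones by up to 97 bases. Their exon bases differ more for FKBP1A (5973 against a deposited length of 2577) and FKBP15 (18557 against 11060). Promoters came from RefSeq. Recovery of fragments and the intervals were run on data simulated with counting error alone. Without PCR copies or spread between cultures, that checks the computation only. The alternatives were other additions to FPKM, minimums, scalings, sums with copies and an exact binomial test; the canonical length and the group of genes with at least 1000 fragments were added after the data were seen. Protein sequences were not used here, and some genes that the naming rule gives are not reported here. Computations used scipy 1.17.1, pandas 2.3.3 and numpy 2.4.6 in Python 3.11.15, and plots were drawn with matplotlib 3.10.9.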

Additional observations from a re-analysis of the deposited data

How the results depend on the processing

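The number of members past 2-fold was 0 under every alternative run, with 0.01 or 1 added to FPKM, median, TPM or upper quartile scaling, sums with copies, no minimum, and 1 FPKM in both libraries. The number with an interval that left out an equal level was 1 with all of these that bear on it except TPM, with which it was 2, FKBP1A and FKBP8. A two-sided exact binomial comparison of fragments, with Benjamini-Hochberg adjustment over 17105 genes, called 1 member, FKBP1A (adjusted p = 0.00045), and 21.8% of all genes; it compares the libraries only. The scalings shift every ratio by -0.02 to 0.02 before 0.1 is added to FPKM, and FKBP1B went from -0.42 to -0.46 with TPM. The sign of FKBP15 turned (-0.02 to 0.02), and that of no other member did. FKBP1A ranged from 0.15 to 0.19 and FKBP1B from -0.46 to -0.24, and the median of the members from -0.06 to -0.02. The number of listed genes past 2-fold was 1 under each alternative, as in the report, where it is the targeted FKBP9, and those with an interval off 0 numbered 53 to 58. The length of the canonical transcript moved the levels of 6 members by more than counting error, and FKBPL stayed within it. No paired analysis was possible because there was 1 library per condition, and for the same reason no replicate could be left out. Depth limits FKBP1B and FKBPL most, whose intervals have a half-width of 0.75 and 0.30 on the log2 scale, against 0.05 for FKBP8.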

Other observations

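Of the FKBP genes outside the 7 and outside the ER, FKBP6, a gene known for its role in the germline, had 0 fragments in both libraries, which at 3 fragments allows levels of up to 0.0349 and 0.0368 FPKM in shControl and shFKBP9. FKBP9P1, a pseudogene of the targeted gene on chromosome 7, had 14 and 6 fragments.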
